A study of Mus musculus with 33 samples.

Results

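The 10 milk protein genes described here are Csn1s1, Csn1s2a, Csn2, Csn3, Wap, Lalba, Glycam1, Btn1a1, Mfge8 and Xdh. They were taken by gene symbol from a table of read counts for 55487 genes. All 10 were in the table and passed the filter of at least 10 reads summed over the libraries, which left 36527 genes for testing. The question was whether mammary tumors express milk genes more than tumor-free glands do.

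RNAseq was performed on sorted GFP+ mammary epithelial cells from 33 mice with 1 library per mouse, 19 of tumors and 14 of glands. All mice carried Cre under the MMTV promoter, which is active in mammary epithelium, and the ROSA mTmG reporter, in which Cre switches red to green fluorescence. Tumor mice also carried PyMT, a viral oncogene driven by the same promoter, and tumor-free mice did not. PTHrP WT mice were Pthrp wt/wt and PTHrP KO mice Pthrp flox/flox, in which Cre acts on the floxed Pthrp gene in cells where the MMTV promoter is active. The PyMT and Cre lines were on an FVB background, and the floxed line came from C57BL/6 mice backcrossed to FVB. The strain of the reporter line is not given in the sources used here. WT tumors came from weeks 6, 8 and 10 (3 mice each) and week 12 (1 mouse), and KO tumors from weeks 8, 10 and 12 (3 mice each). WT glands came from weeks 6, 8, 10 and 12 and KO glands from weeks 8, 10 and 12 (2 mice each). The paper places hyperplasia, adenoma and carcinoma at weeks 6, 8 and 10 in WT tumor mice and at weeks 8, 10 and 12 in KO tumor mice. By its account the GFP+ cells at hyperplasia include normal and pre-neoplastic epithelium, and all these stages are called tumors here. Dissociated cells were kept in medium with serum before the sort, and no lactogenic hormone is mentioned in the sources used here. The reproductive state of the mice is not given in these sources.

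Milk is made by the luminal cells of the alveoli. The caseins (Csn1s1, Csn1s2a, Csn2 and Csn3) and the whey proteins are secreted by exocytosis, and milk fat leaves the cell as globules wrapped in membrane. Prolactin acts through its receptor, the kinase JAK2 and the factor STAT5 to switch on casein genes in late pregnancy and lactation, together with glucocorticoids and the factors ELF5 and C/EBPβ. Csn1s1, Csn2, Csn1s2a and Csn3 lie together on chromosome 5 (GRCm38, Gencode M21), at 87666208 to 87682578, 87692624 to 87699630, 87774567 to 87788797 and 87925579 to 87932665. Csn2 is on the minus strand and the other 3 are on the plus strand. The other members are spread over the genome, with Wap on chromosome 11, Lalba and Glycam1 on chromosome 15, Btn1a1 on 13, Mfge8 on 7 and Xdh on 17.

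STAT5 binds sites of the form TTCNNNGAA, which reads the same on both strands. RefSeq promoters (GRCm38.p6, 250 bases before to 50 bases after the transcript start) were found for 7 of the 10 members and searched for this form. It was present in 4 of the 7 (Csn1s1, Csn2, Csn1s2a and Glycam1), and in 8.30% of all 32851 promoters of this length. The promoters of the caseins that varied together in the tumors are shown with that of Wap, the member with 0 reads in every gland, and capitals mark matches to the STAT5 form.
Csn1s1, chr5:87665958-87666257, plus strand: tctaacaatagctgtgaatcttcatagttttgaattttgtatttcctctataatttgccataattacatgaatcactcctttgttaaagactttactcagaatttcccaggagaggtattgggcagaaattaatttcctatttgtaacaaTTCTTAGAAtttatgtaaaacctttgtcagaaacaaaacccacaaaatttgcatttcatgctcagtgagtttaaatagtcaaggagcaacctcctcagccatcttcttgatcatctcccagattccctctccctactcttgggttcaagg
Csn2, chr5:87699376-87699675, minus strand: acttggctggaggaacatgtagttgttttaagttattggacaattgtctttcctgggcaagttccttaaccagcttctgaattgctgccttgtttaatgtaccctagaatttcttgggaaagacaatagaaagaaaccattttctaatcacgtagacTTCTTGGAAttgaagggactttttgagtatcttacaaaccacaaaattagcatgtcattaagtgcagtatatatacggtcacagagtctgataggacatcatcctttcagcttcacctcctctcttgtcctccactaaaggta
Csn1s2a, chr5:87774200-87774499, plus strand: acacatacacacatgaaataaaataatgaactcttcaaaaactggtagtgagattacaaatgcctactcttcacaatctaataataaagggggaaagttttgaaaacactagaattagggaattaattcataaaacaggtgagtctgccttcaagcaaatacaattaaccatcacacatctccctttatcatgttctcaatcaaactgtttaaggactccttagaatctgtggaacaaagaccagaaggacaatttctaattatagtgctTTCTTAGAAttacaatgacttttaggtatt
Wap, chr11:6638600-6638899, minus strand: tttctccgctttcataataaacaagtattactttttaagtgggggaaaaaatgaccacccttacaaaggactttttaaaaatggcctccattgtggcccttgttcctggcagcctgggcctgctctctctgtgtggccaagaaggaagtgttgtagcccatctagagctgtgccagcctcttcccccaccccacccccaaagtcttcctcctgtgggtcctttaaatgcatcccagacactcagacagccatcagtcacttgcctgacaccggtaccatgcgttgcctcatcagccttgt
The match began 100 bases before the RefSeq start in Csn1s1 and 93 bases before it in Csn2. In Csn1s2a it began 20 bases after the RefSeq start, 97 bases before the start that Gencode M21 gives this gene. For Csn2 Gencode M21 places the gene's start at 87699630, upstream of the RefSeq start at 87699425. The form TTGCNNAA, bound by C/EBP proteins, and the palindromic NF1 site were searched on both strands. Neither was in any of the 7 windows, and they were in 10.8% and 0.807% of all promoters. These matches are descriptions of the letters and not shown binding sites, and a window without a match says nothing of sites outside it.

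Counted reads per library ranged from 28419983 to 130981596 (median 46351179). Levels are given as CPM, the reads of a gene scaled to a common library total, with library sizes adjusted by TMM in edgeR. The 10 luminal markers listed (Krt8, Krt18 and Epcam among them) summed to 9636 to 15688 CPM in glands (median 11451) and 6615 to 14881 CPM in tumors (median 11704), so that the labelled mammary epithelium expressed its markers in every library. The 10 basal or myoepithelial markers summed to 5311 to 20766 CPM in glands (median 9801) and 1006 to 5420 CPM in tumors (median 2513). In a sorted population fewer cells of a type and less RNA per cell cannot be told apart. Pthlh, which encodes PTHrP, was at 2.93 to 7.73 CPM in WT glands and 2.79 to 8.52 CPM in KO glands, and at 1.46 to 6.67 CPM in WT tumors and 1.35 to 2.29 CPM in KO tumors. The genotypes overlapped in both tissues, and since the counts cover the whole gene while the loxP sites lie at the fourth exon, they do not check the genotype labels. Counts per exon were not used here. Reads on rRNA genes took at most 0.447% of any WT library, a median of 6.20% of KO glands and a median of 0.952% of KO tumors.

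The milk protein genes were higher in the tumors. The 10 members together took 0.0161% to 0.0508% of the counted reads in glands (median 0.0388%) and 0.0768% to 0.324% in tumors (median 0.143%), with no overlap. In all 19 tumors Csn3, Wap, Lalba and Mfge8 each lay above all 14 glands, a separation that 0.534% of all genes tested showed. For Wap the glands had 0 reads, which allows up to 0.148 CPM in the gland with the highest such bound. Tumors at 0.0583 and 0.107 CPM of Wap lay below that bound. Averaged over the 6 comparisons of tumors with glands of the same genotype and age, 9 of the 10 members were called higher and none lower, against 6.69% of all genes called higher. A gene was called at a fold change over 1.5 and an adjusted p under 0.1 in edgeR's quasi-likelihood test. Glycam1 was not called. The median log2 fold change was 2.51 over the 10 members and 0.08 over all genes tested. In glands the levels of the members ran from Mfge8, the highest, to Wap, with no read.

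**Figure D1:**
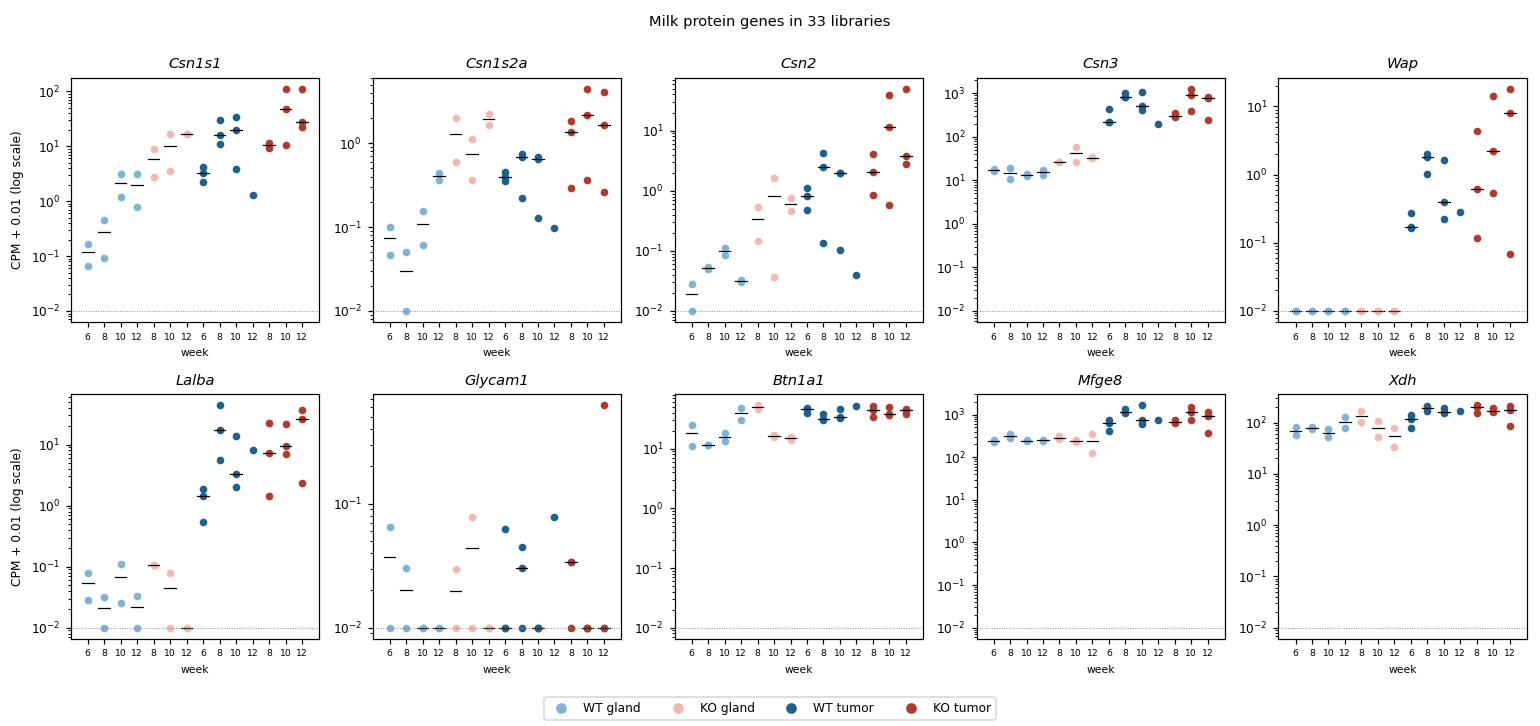
Level of each milk protein gene in the 33 libraries, as CPM + 0.01 on a log scale, by genotype, tissue and week. Points are mice, bars are group medians, and the dotted line marks 0 reads. Csn3, Wap, Lalba and Mfge8 lay above all 14 glands in all 19 tumors, and Glycam1 was near 0 in both tissues.

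Csn3 encodes κ-casein, which sits on the surface of the casein micelle and keeps it in solution. In WT mice of week 6 it was at 426, 215 and 216 CPM in tumors and 16.8 and 18.7 CPM in glands. At week 8 it was at 807, 806 and 999 CPM in WT tumors and 10.7 and 19.2 CPM in WT glands. At week 10 the WT tumors had 1097, 512 and 419 CPM and the WT glands 13.7 and 12.6 CPM. Every WT tumor was thus more than 10 times above its glands. In KO mice of week 8 Csn3 was at 307, 281 and 353 CPM in tumors and 26.4 and 26.2 CPM in glands. At week 10 it was at 398, 896 and 1277 CPM in KO tumors and 59.9 and 25.8 CPM in KO glands. At week 12 the KO tumors had 248, 824 and 771 CPM and the KO glands 32.7 and 33.7 CPM. Csn3 was called higher in all 6 comparisons, which 0.43% of all genes were. The call in KO mice of week 12 was lost when the 2 groups were fitted alone (adjusted p = 0.145, and from 5.99e-15 to 0.145 over 8 alternatives with edgeR, DESeq2 or limma). The log2 fold change ran from 3.57 (SE 0.53, adjusted p = 0.00152) in KO mice of week 8 to 5.86 (SE 0.60, adjusted p = 1.7e-06, edgeR) in WT mice of week 8. The average was 4.61 (SE 0.23, adjusted p = 2.77e-13, edgeR), a fold of 24.4. Csn3 took 2.39% to 15.0% of the members' reads in glands (median 5.04%) and 16.6% to 41.1% in tumors (median 32.2%).

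Csn1s1 and Csn1s2a encode α-caseins and Csn2 encodes β-casein, the caseins that bind calcium in the micelle core and that are the most abundant proteins of mouse milk. Csn1s1 was at 3.28, 4.10 and 2.20 CPM in WT tumors of week 6 against 0.158 and 0.0547 CPM in glands. It was at 16.1, 30.0 and 11 CPM in WT tumors of week 8 against 0.443 and 0.0808 CPM in glands. At week 10 it was at 33.9, 3.80 and 19.3 CPM in WT tumors against 3.14 and 1.17 CPM in glands. At these 3 ages the groups did not overlap and Csn1s1 was called higher, by 4.94 (SE 1.31, adjusted p = 0.0296), 6.20 (SE 1.22, adjusted p = 0.00143) and 3.10 (SE 0.97, adjusted p = 0.0656, edgeR) on the log2 scale. The call was lost without either gland at weeks 6 and 10, and at week 10 also without replicate 1 of the tumors. Over 8 alternatives the adjusted p at week 10 ran from 0.000404 to 0.154, and the call was lost with the replicate block and with the groups compared alone. KO tumors had 10.4, 9.18 and 11.6 CPM at week 8 against 2.77 and 9.0 CPM in glands. At week 10 they had 10.5, 46.7 and 111 CPM against 16.5 and 3.58 CPM. At week 12 they had 27.0, 22.7 and 111 CPM against 17 CPM in each gland. In KO mice the differences of Csn1s1 were 0.85 (SE 0.88), 2.48 (SE 0.93) and 1.66 (SE 0.89) on the log2 scale, none of them called (adjusted p = 0.782, 0.154 and 0.390, edgeR), and the groups overlapped at week 10. The average over the 6 comparisons was 3.21 (SE 0.43, adjusted p = 1.63e-06, edgeR).

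Csn2 was at 0.818, 1.11 and 0.470 CPM in WT tumors of week 6, where the glands held 0 reads and 1 read. The ratio of tumors to glands was 84.1, with an exact 95% interval of 14.9 to 3344 that covers counting error only. At week 8 it was at 2.48, 4.31 and 0.128 CPM in WT tumors against 0.0443 and 0.0404 CPM in glands. At week 10 the WT tumors had 1.96, 0.0945 and 1.99 CPM and the glands 0.0770 and 0.102 CPM, so that 1 tumor lay between the glands. KO tumors of week 8 had 0.844, 2.08 and 4.10 CPM against 0.137 and 0.529 CPM in glands. At week 10 they had 0.576, 11.7 and 38.8 CPM against 1.60 and 0.0271 CPM, and at week 12 they had 2.73, 3.78 and 49.9 CPM against 0.748 and 0.443 CPM. The highest levels of Csn2 were in replicate 3 of the KO tumors at weeks 10 and 12. It was called higher in WT mice of week 8 (5.70 on the log2 scale, SE 2.00, adjusted p = 0.087) and KO mice of week 12 (4.94, SE 1.62, adjusted p = 0.0814, edgeR). In WT mice of week 8 it was no longer called without either gland or without replicate 1 or 2 of the tumors, and in KO mice of week 12 without either gland or without replicate 3 of the tumors. Over 8 alternatives its adjusted p ran from 0.00158 to 0.129 in WT mice of week 8, with the call lost under 1 (limma), and from 0.000934 to 0.282 in KO mice of week 12, with the call lost under 3 (the replicate block, the groups compared alone and limma). The average was 4.67 (SE 0.75, adjusted p = 2.31e-05, edgeR), and 11 of the 19 tumors lay above the highest gland. Csn1s2a had 0.0885 to 4.45 CPM in tumors (median 0.631) and 0 to 2.24 CPM in glands (median 0.356). It was called in WT mice of week 8 alone (4.55, SE 1.47, adjusted p = 0.0571, edgeR), where the glands held 0 and 2 reads and the ratio was 27.8 (exact 95% interval 7.52 to 232), and on average (1.81, SE 0.46, adjusted p = 0.00425, edgeR). The call at week 8 was lost without any one of 4 libraries, each gland and replicates 1 and 2 of the tumors. In KO mice of weeks 8 and 12 its differences were -0.11 (SE 0.93) and 0.05 (SE 0.90) on the log2 scale, with the groups overlapping.

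Wap encodes whey acidic protein, the major whey protein of mouse milk. It had 0 reads in each of the 14 glands, among 653455093 counted reads, which allows at most 3 reads in a library or 0.0231 to 0.148 CPM. All 19 tumors had at least 1 read, 3044 in all. In WT tumors Wap was at 0.158, 0.154 and 0.264 CPM at week 6, at 1.83, 1.99 and 1.00 CPM at week 8 and at 1.65, 0.213 and 0.387 CPM at week 10. In KO tumors it was at 0.107, 0.609 and 4.29 CPM at week 8, at 0.535, 2.18 and 14.3 CPM at week 10 and at 0.0583, 7.94 and 18.2 CPM at week 12. Against a floor of 3 reads per gland library, Wap was at least 3.13-fold, 25.3-fold and 15.1-fold higher in WT tumors of weeks 6, 8 and 10. It was at least 16.4-fold, 61.8-fold and 75.6-fold higher in KO tumors of weeks 8, 10 and 12. These bounds compare group means, and replicate 3 was the highest tumor in each KO group. Replicate 1 of the KO tumors of week 12, at 0.0583 CPM, lay within the range of the gland floors. The bounds do not hold for each tumor. It was called higher in WT mice of week 8 and in KO mice of weeks 10 and 12 (adjusted p = 0.0989, 0.0682 and 0.0525, edgeR). At week 8 the call was lost without any one of the 5 libraries, and at weeks 10 and 12 without either gland or without replicate 3 of the tumors. Each of the 3 calls of Wap was also lost under 1 of 8 alternatives. This was the size factors of DESeq2 in WT mice of week 8 (adjusted p from 0.000666 to 0.104 over the alternatives), the replicate block in KO mice of week 10 (9e-05 to 0.129) and a fit of the 2 groups alone in KO mice of week 12 (4.7e-05 to 0.309).

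Lalba encodes α-lactalbumin, which turns β-1,4-galactosyltransferase into the lactose synthase of milk. It held 0 to 5 reads in any gland, at most 0.102 CPM. In WT tumors it was at 1.41, 1.83 and 0.528 CPM at week 6, at 17.3, 5.64 and 43.8 CPM at week 8 and at 13.7, 2.03 and 3.26 CPM at week 10. In KO tumors it was at 1.40, 7.14 and 22.4 CPM at week 8, at 7.12, 9.37 and 21.5 CPM at week 10 and at 2.36, 26.1 and 37.5 CPM at week 12. Lalba was called higher in all 6 comparisons (adjusted p from 0.000574 to 0.0919, edgeR). The comparison with the highest p was WT mice of week 6, where the call was lost without either gland or without replicate 1 or 2 of the tumors. It was also lost without replicate 1 of the glands in WT mice of week 10, without either gland in KO mice of week 8 and without replicate 2 of the glands in KO mice of week 10. The call in KO mice of week 12 was lost when the 2 groups were fitted alone (adjusted p = 0.181, and from 1.6e-08 to 0.181 over 8 alternatives). In WT mice of week 8 the glands held 1 read in all, and the ratio was 1938 (exact 95% interval 348 to 76546). In KO mice the ratio was 395 at week 10 (109 to 3264, with 2 reads in glands), and Lalba was at least 191-fold higher at week 12, where both glands had 0 reads.

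**Figure D2:**
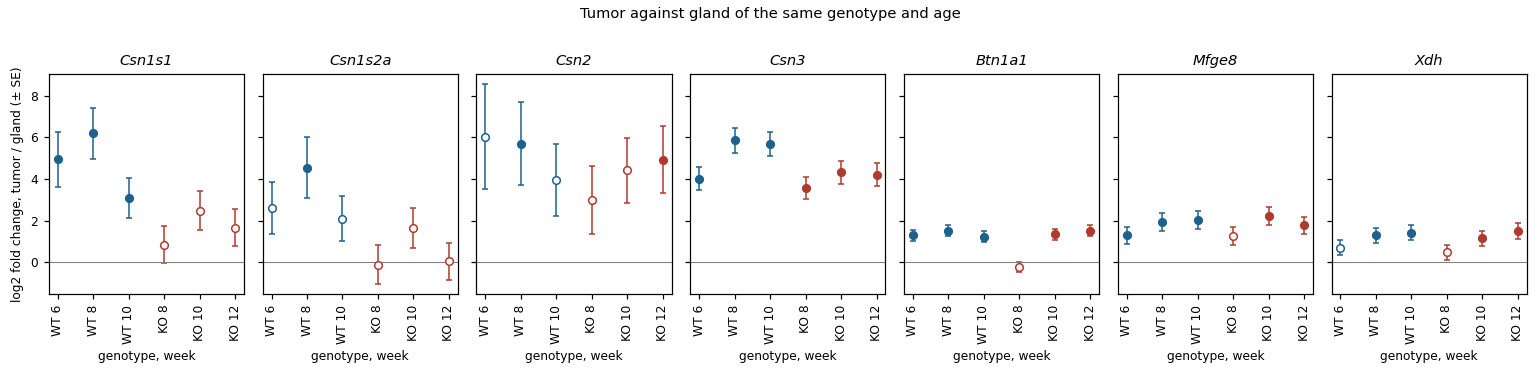
Log2 fold change of tumors over glands of the same genotype and week for Csn1s1, Csn1s2a, Csn2, Csn3, Btn1a1, Mfge8 and Xdh, from edgeR, with bars of 1 SE. Filled points passed a fold of 1.5 and an adjusted p of 0.1, and open points did not. Csn3 was filled in all 6 comparisons, and Csn1s1 in the 3 of WT mice.

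Mfge8, Btn1a1 and Xdh encode proteins of the milk fat globule membrane, and all 3 were expressed in every gland. Mfge8, which binds phosphatidylserine and integrins, was at 126 to 354 CPM in glands (median 254) and 381 to 1648 CPM in tumors (median 759), with no overlap. It was called higher in 5 of the 6 comparisons, with log2 fold changes of 1.30 to 2.23 (SE 0.42 to 0.44), and at week 6 the call was lost without either gland, without replicate 1 or 2 of the tumors or with the replicate block (adjusted p = 0.106, and from 0.00138 to 0.106 over 8 alternatives). In KO mice of week 8 the difference was 1.26 (SE 0.42, adjusted p = 0.154, edgeR), and all 3 tumors lay above both glands. Btn1a1 encodes butyrophilin, which links the globule to the membrane. It was at 11.2 to 53.1 CPM in glands (median 16.3) and 30.5 to 51.6 CPM in tumors (median 39.2). It was called higher in 5 of the 6 comparisons, by 1.24 to 1.52 on the log2 scale (SE 0.26 in each). In KO mice of week 8 the glands had 46.7 and 53.1 CPM and the tumors 33.5, 51.0 and 44.7 CPM, a difference of -0.21 (SE 0.25, adjusted p = 0.824, edgeR). No tumor lay above that highest gland. Xdh, the xanthine oxidoreductase that binds butyrophilin in the globule, was at 33.8 to 171 CPM in glands (median 77.6) and 78.6 to 216 CPM in tumors (median 170). It was called higher in 4 of the 6 comparisons, by 1.16 to 1.5 on the log2 scale (SE 0.36 to 0.37), and not in WT mice of week 6 (0.71, SE 0.36) or KO mice of week 8 (0.47, SE 0.35). Calls of these genes also turned on single libraries. Without replicate 1 of the WT glands of week 10, Btn1a1 and Xdh were no longer called there, and without replicate 2 of the KO glands of week 12, Mfge8 and Xdh were not. Btn1a1 lost its call at week 6 without replicate 2 of the WT glands, and Xdh lost its call in WT mice of week 8 without either gland and in KO mice of week 10 without gland replicate 1 or tumor replicate 2 or 3. All 3 lost their call in KO mice of week 12 when the 2 groups were fitted alone, with adjusted p of 0.145 for Btn1a1, 0.314 for Mfge8 and 0.298 for Xdh. The lowest adjusted p over the 8 alternatives there were 1.37e-06, 1.29e-05 and 4.76e-05. The average log2 fold changes were 1.75 (SE 0.17) for Mfge8, 1.12 (SE 0.11) for Btn1a1 and 1.09 (SE 0.15) for Xdh, with adjusted p of 1.42e-08, 5.41e-09 and 2.01e-06 (edgeR).

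Glycam1, a mucin of the milk fat globule that is also made by high endothelial venules, held 70 reads over all libraries. Of these, 44 were in 1 KO tumor, replicate 3 of week 12, at 0.611 CPM. It had 0 reads in 10 of the 14 glands and 12 of the 19 tumors. The markers of high endothelial venules (Chst4, Madcam1, Fut7 and Ackr1) summed to at most 0.546 CPM in any library, and Ackr1 held too few reads to be tested.

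By comparison, 5 members were called higher in WT mice of week 6 (2.32% of all genes), 9 at week 8 (3.35%) and 6 at week 10 (2.46%). In KO mice 2 were called higher at week 8 (1.11%), 6 at week 10 (2.57%) and 7 at week 12 (3.19%). None of the 7 at week 12 was called when the 2 groups were fitted alone. No member was called lower in any of the 6 comparisons. All tumors lay above all glands for 8, 9 and 7 members in WT mice of weeks 6, 8 and 10 (13.9%, 16.3% and 10.1% of all genes) and for 6, 6 and 8 members in KO mice of weeks 8, 10 and 12 (15%, 13.9% and 13%). The number depended on single glands, since each group had 2. The share of all genes called in the same fits is not given beside the counts below. Without replicate 2 of the WT glands of week 6 only 1 member was called there, and without replicate 1 it was 2. Without replicate 1 or 2 of the WT tumors of week 6, 3 members were called. Without either gland of WT week 8 the count was 5, and without replicate 1 of the WT glands of week 10 it was 2. Without either gland of KO week 8 the count was 1, and without replicate 2 of the KO glands of week 12 it was 3. The average over the 6 comparisons called the 9 members whichever library was left out.

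Scaled by transcript length (CPM per kb of the longest protein-coding transcript), the members spanned a wide range of levels. In glands the order of the medians was Mfge8 (120 CPM per kb), Xdh (16.9), Csn3 (11.9), Btn1a1 (4.75) and Csn1s1 (2.08), with Csn1s2a, Csn2 and Lalba under 0.4 and Wap and Glycam1 at 0. In tumors it was Mfge8 (357), Csn3 (267), Xdh (36.9), Btn1a1 (11.5), Lalba (9.26), Csn1s1 (8.22), Csn2 (1.5), Wap (1.11), Csn1s2a (0.686) and Glycam1 (0). These orders pool the genotypes. In KO tumors alone the median of Csn1s1 (16.1) was above those of Btn1a1 (13.1) and Lalba (12.2), and that of Wap (3.95) above that of Csn2 (2.84). In KO glands Csn1s1 (9.03) was above Btn1a1 (4.75), and in WT glands it was at 0.432. Mfge8 and Xdh in glands, and Csn3 and Xdh and then Xdh and Btn1a1 in tumors, were the neighbours in this order whose libraries did not overlap. In length-scaled levels Csn3 made up 80.0% to 99.2% of the 4 caseins in tumors (median 96.3%) and 57.7% to 99.2% in glands (median 85.3%). In glands this share was 77.8% to 99.2% (median 92.3%) in WT and 57.7% to 85.9% (median 68.7%) in KO mice. The ranges of the genotypes overlapped, and the difference was not tested.

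**Figure D3:**
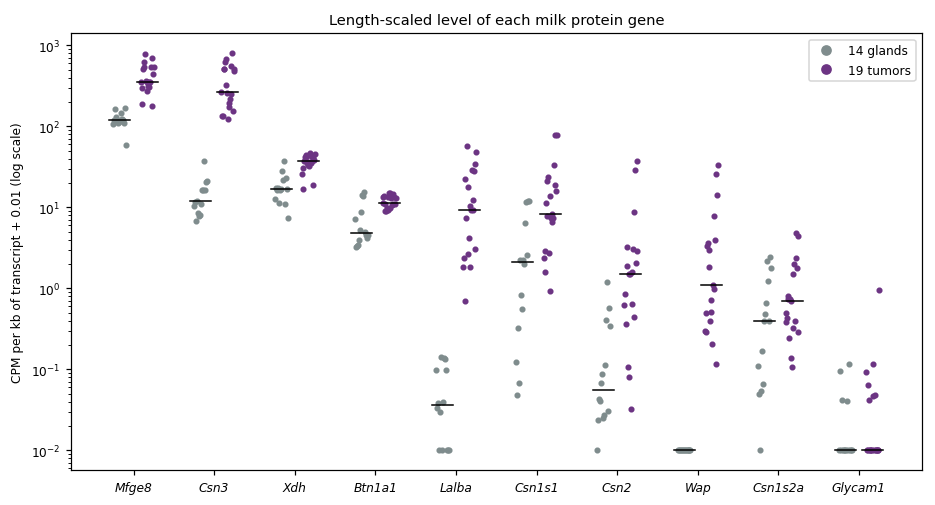
CPM per kb of transcript + 0.01 on a log scale for each member, in the order of the tumor medians. Points are the 14 glands and the 19 tumors and bars are medians. Mfge8 and Csn3 were the highest in tumors, at medians of 357 and 267 CPM per kb.

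Within the tumors Csn2 varied with Csn1s1, Csn1s2a and Wap. In the 19 tumors the correlation of log2(CPM + 0.5) with Csn2 was r = 0.875 for Csn1s1 (Spearman rho = 0.844), r = 0.913 for Csn1s2a (rho = 0.865) and r = 0.831 for Wap (rho = 0.684). The adjusted p of r over 16 pairs was 8e-05 for Csn1s1 and Csn1s2a and 0.000107 for Wap (two-sided permutation tests with 100000 permutations, the smallest raw p they can give being 1e-05). The adjusted p of rho was 0.00016, 0.00016 and 0.00812. Without the 2 tumors farthest from the median of Csn2, r was 0.789, 0.809 and 0.617. In the 10 WT tumors r was 0.773, 0.963 and 0.623, and in the 9 KO tumors it was 0.939, 0.864 and 0.837. For Csn3 r was 0.520 (adjusted permutation p = 0.0486), rho was 0.414 (adjusted p = 0.143) and r was 0.369 without the 2 tumors. Its r was 0.408 in the 10 WT tumors and 0.770 in the 9 KO tumors. For Lalba, Glycam1, Btn1a1, Mfge8 and Xdh r lay between 0.231 and 0.495 (adjusted permutation p from 0.0694 to 0.453). In the 14 glands r with Csn2 was 0.809 for Csn1s1, 0.783 for Csn1s2a and 0.834 for Csn3 (adjusted permutation p = 0.0004, 0.00336 and 0.00109), and rho was 0.763, 0.657 and 0.613 (adjusted permutation p = 0.00812, 0.0409 and 0.0614). Without the 2 glands farthest from the median of Csn2, r was 0.783, 0.876 and 0.610. In the 8 WT glands alone, where Csn2 had 0 to 10 reads, r was 0.449, -0.278 and -0.491, and in the 6 KO glands it was 0.822, 0.616 and 0.867. Within WT glands r thus stayed positive for Csn1s1 alone. With so few reads of Csn2 these values cannot show whether a relation was absent, and the genotypes were not tested against each other. These genes share libraries, depth and sorted populations.

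**Figure D4:**
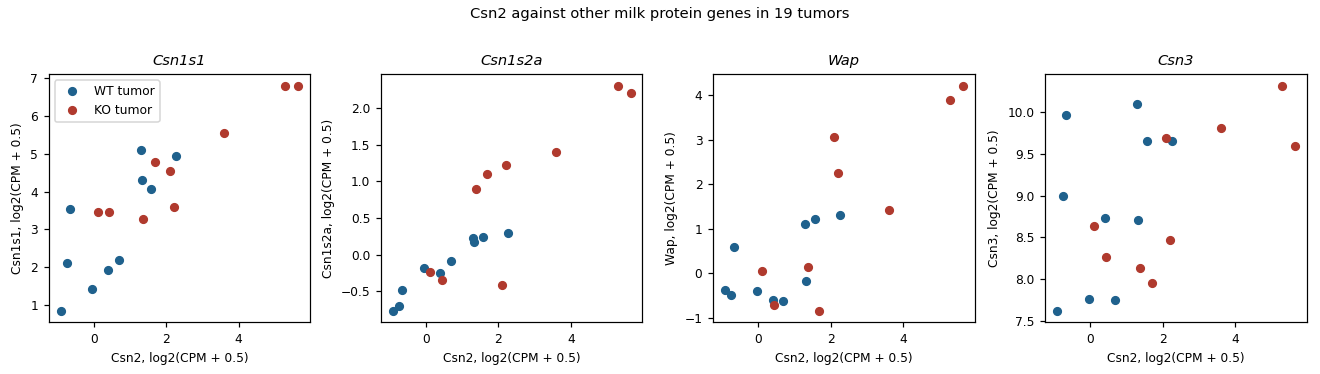
Log2(CPM + 0.5) of Csn1s1, Csn1s2a, Wap and Csn3 against that of Csn2 in the 10 WT and 9 KO tumors. Csn1s1, Csn1s2a and Wap were higher where Csn2 was higher (r = 0.875, 0.913 and 0.831), and Csn3 less closely (r = 0.520).

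PTHrP ablation was compared at the ages that both genotypes had. In glands of weeks 8, 10 and 12, 3 members were called lower in WT than in KO mice, against 0.402% of all genes. Csn1s1 was at 0.0808 to 3.14 CPM in these 6 WT glands and 2.77 to 17 CPM in the 6 KO glands (-3.26 on the log2 scale, WT minus KO, SE 0.62, adjusted p = 0.0182). Csn1s2a was at 0 to 0.434 CPM in WT and 0.353 to 2.24 CPM in KO glands (-3.57, SE 0.73, adjusted p = 0.0238). Csn3 was at 10.7 to 19.2 CPM in WT and 25.8 to 59.9 CPM in KO glands (-1.21, SE 0.30, adjusted p = 0.0563, edgeR). For Csn3 the genotypes did not overlap, and for the α-caseins the lowest KO glands lay within the WT range. Csn2 was not called (-3.53, SE 1.31, adjusted p = 0.246, edgeR), and Btn1a1, Mfge8 and Xdh differed by -0.26, 0.06 and -0.07 (SE 0.16, 0.25 and 0.22). The genotypes also differed in rRNA, which took 0.00296% to 0.261% of the reads in WT glands and 0.0224% to 18.8% in KO glands. The 2 KO glands with low shares, replicate 1 of week 8 (0.0224%) and replicate 1 of week 12 (0.0362%), had 2.77 and 17 CPM of Csn1s1 and 26.4 and 32.7 CPM of Csn3. With rRNA genes left out of the counts the same 3 members were called. Whether what went with the rRNA share moved these genes was not tested. DESeq2 called 4 members. The shares of all genes given here and in the comparisons below are those of edgeR and do not apply to DESeq2 counts. Csn3 was no longer called when any one of 8 of the 12 glands was left out, Csn1s1 without replicate 2 of WT week 8, and Csn1s2a without replicate 1 of WT week 12 or replicate 2 of KO week 8. The count was 1 without replicate 2 of WT week 8, replicate 1 of WT week 12 or replicate 2 of KO week 8.

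**Figure D5:**
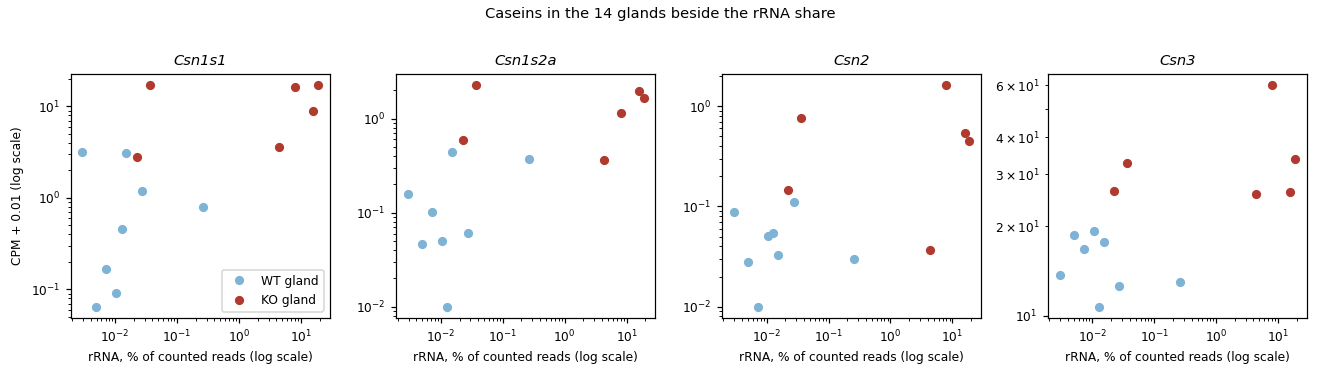
CPM + 0.01 of the 4 caseins against the percent of counted reads on rRNA genes, both on log scales, in the 8 WT and 6 KO glands. Csn3 was at 10.7 to 19.2 CPM in WT and 25.8 to 59.9 CPM in KO glands, also in the 2 KO glands with rRNA shares under 0.04%.

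In tumors of weeks 8 and 10 no member was called between WT and KO mice (edgeR), where 0.512% of all genes were, with 2 members at an unadjusted p under 0.05. These were Csn1s2a (-1.66, SE 0.59, adjusted p = 0.273) and Csn2 (-1.82, SE 0.82, adjusted p = 0.410), both with the higher level in KO tumors. Without replicate 3 of the KO tumors of week 10 they were -1.22 and -1.08. DESeq2 called 1 member, Csn1s2a. For Csn3 the difference was 0.57 (SE 0.29). The difference of the tumor effect between the genotypes at these ages was called for no member (edgeR), where 0.00548% of all genes were, with 4 at an unadjusted p under 0.05. The share of all genes at that unadjusted p was not counted, here or in the other comparisons. The difference of the tumor effect was 2.98 for Csn1s1 (SE 0.93, adjusted p = 0.772) and 1.83 for Csn3 (SE 0.46, adjusted p = 0.472, edgeR), in the direction of a larger effect in WT mice. For Csn1s1 the levels of WT and KO tumors themselves differed by -0.34 (SE 0.53), and those of glands of weeks 8, 10 and 12 by -3.26. DESeq2 called 1 member, Csn3. The comparisons share the same tumors and glands and are not independent of each other. By the paper's stages, WT tumors of weeks 8 and 10 were adenoma and carcinoma, and KO tumors of these weeks hyperplasia and adenoma. Genotype and stage therefore cannot be told apart in these comparisons of tumors.

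With age, no member was called in WT tumors between weeks 6 and 10 (0.011% of all genes), with 3 at an unadjusted p under 0.05 and 1 called by DESeq2. Csn1s1 was 2.56 higher at week 10 (SE 0.80), Lalba 2.31 (SE 0.91) and Csn3 1.24 (SE 0.41) on the log2 scale, with adjusted p of 0.457, 0.529 and 0.486 (edgeR). Without replicate 1 of week 10 these differences were 1.85, 1.05 and 0.70. In KO tumors no member was called between weeks 8 and 12 (0% of all genes), with 4 at an unadjusted p under 0.05 and 0 called by DESeq2. Csn1s1 was 2.37 higher at week 12 (SE 0.79) and Csn2 3.02 (SE 1.19), with adjusted p of 0.587 and 0.628, and without replicate 3 of week 12 the differences were 1.26 and 0.49. In WT glands no member was called between weeks 6 and 12 (0.35% of all genes), with 2 at an unadjusted p under 0.05 and 2 called by DESeq2. These were Csn1s1, 4.21 higher at week 12 (SE 1.37, adjusted p = 0.304, and 2.90 without replicate 2 of week 12), and Btn1a1, 1.12 higher (SE 0.27, adjusted p = 0.104, edgeR), and 1 member was called without replicate 1 of week 6. In KO glands Btn1a1 was called lower at week 12 than at week 8, as 0.323% of all genes were. It fell from 46.7 and 53.1 CPM to 14.2 and 15.8 CPM (-1.74, SE 0.28, adjusted p = 0.0314, edgeR), and it was not called without replicate 2 of week 8, without replicate 2 of week 12 or with the 2 groups fitted alone (adjusted p = 0.661, and from 2.33e-05 to 0.661 over 8 alternatives), while 2 members were called without replicate 1 of week 12.

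Other genes of milk secretion, a list of 25 fixed beside the members, were compared in the same way. On average over the 6 comparisons 13 were called higher, 2 lower and 10 not called, against 6.69% of all genes called higher and 8.23% lower. The median log2 fold change was 1.39, and 0.08 over all genes. The 4 with the largest rise among the called genes were Pigr, the receptor that carries IgA into milk (6.06, SE 0.57), Thrsp, a regulator of fatty acid synthesis (4.54, SE 0.38), Cel, the bile salt-stimulated lipase of milk (4.12, SE 0.42), and Spp1, osteopontin (3.6, SE 0.32). Each of the 4 was called higher in all 6 comparisons. Spp1 was at 47.1 to 770 CPM in glands and 691 to 6479 CPM in tumors. The 2 that fell were Tph1, the enzyme of serotonin synthesis (-4.29, SE 0.27), called lower in all 6, and Cd36, a fatty acid carrier (-1.23, SE 0.39). The Thrsp and Pigr levels in glands were at most 1.25 and 0.341 CPM.

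Of the 12 genes of the prolactin axis 4 were called higher and 0 lower on average, against 6.69% of all genes called higher and 8.23% lower, with a median log2 fold change of 0.15 (0.08 over all genes). The 4 were Elf5, a luminal factor of alveolar cells (2.61, SE 0.19), Id2 (1.37, SE 0.18), Ehf (1.22, SE 0.11) and Cebpb, which encodes C/EBPβ (0.66, SE 0.12). Elf5 was at 5.25 to 30.6 CPM in glands and 28.6 to 105 CPM in tumors. Further genes of this list, of the casein locus and of the hormone-sensing markers are named here after their values were seen. Prlr, the prolactin receptor, was at 17.7 to 143 CPM in glands and 16.2 to 58.9 CPM in tumors (-0.54, SE 0.25, adjusted p = 0.135, edgeR). The levels of Stat5a and Stat5b differed by -0.15 (SE 0.14) and -0.04 (SE 0.05), and those of the STAT5 targets Cish and Socs2 by -0.24 (SE 0.13) and 0.11 (SE 0.09), none of them called. Jak2, the kinase that carries the prolactin signal, was at 50.4 to 162 CPM in glands and 45.7 to 81.0 CPM in tumors (-0.57, SE 0.08, adjusted p = 7.88e-06, edgeR). It did not reach the fold of 1.5 on average and was called lower in 3 of the 6 comparisons. With the size factors of DESeq2 in place of TMM it was called lower on average. RNA levels do not show the activity of STAT5.

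Of the 8 genes listed around the caseins on chromosome 5, 6 could be tested, and 1 was called higher on average, against 6.69% of all genes. This was Sult1d1, a sulfotransferase, at 0 to 0.183 CPM in glands and 0.0204 to 0.213 CPM in tumors (2.12, SE 0.47). Csn1s2b, the other αS2-casein gene, held 126 reads over all libraries (0.76, SE 0.50) and Odam 415 (-0.67, SE 0.36), and neither was called.

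Markers of other cell types were counted beside the members. All 10 basal or myoepithelial markers were called lower in tumors on average, against 8.23% of all genes called lower and 6.69% higher. Of the 7 luminal progenitor markers 6 were called higher and 1 lower, and Elf5 is also in the list of the prolactin axis. Of the 8 hormone-sensing luminal markers 1 was called higher (0 with the size factors of DESeq2) and 5 lower, among them Pgr (-4.86, SE 0.35) and Foxa1 (-3.59, SE 0.21). Of 10 markers in each list, 4 of fibroblasts, 2 of macrophages, 3 of lymphocytes and 5 of endothelial cells were called lower and 0 higher, and 1 of luminal cells (0 higher with the size factors of DESeq2) and 1 of adipocytes were called in each direction. None of the 3 tested markers of high endothelial venules was called. The lymphocyte markers summed to a median of 9.21 CPM in glands and 2.38 CPM in tumors, the endothelial markers to 16.9 and 5.03 CPM, the macrophage markers to 11.6 and 11.3 CPM, the fibroblast markers to 56.0 and 40.8 CPM and the adipocyte markers to 18.2 and 18.2 CPM. Single glands stood far above these medians. Replicate 2 of the WT glands of week 8 had 797 CPM of fibroblast and 53.8 CPM of macrophage markers. Replicate 2 of the WT glands of week 6 had 257 CPM of fibroblast markers. The part of these cell types in the difference of the milk protein genes was not tested.

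The genes most like the caseins and Wap in their pattern were found by the rank correlation over the 33 libraries with the mean log2(CPM + 0.5) of Csn1s1, Csn1s2a, Csn2, Csn3 and Wap, among 13316 genes with at least 1 CPM on average. They were Gmds (rho = 0.920), Tmprss4 (0.910), Ogfrl1 (0.898), Rassf4 (0.898), Fth1 (0.896), Timd2 (0.892), Hephl1 (0.882) and Nedd9 (0.878). The 8 genes are given as a description, and the points share their tissue. Within the 19 tumors their rho lay between 0.653 (Nedd9) and 0.826 (Gmds), and within the 14 glands between 0.622 (Fth1) and 0.877 (Rassf4). Fth1 and Timd2 encode the heavy chain of ferritin and a receptor of it. Timd2 was at a median of 0.718 CPM in glands and 11.6 CPM in tumors, and Rassf4 at 72.6 and 343 CPM.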

How the data were processed

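Dissociated mammary cells were sorted for GFP, and rRNA-depleted total RNA was sequenced. The authors aligned reads with HISAT to GRCm38 (Gencode M16), used Picard 1.128, counted reads per gene with HTSeq and used R 3.6.2 and DESeq2. The deposited tables hold raw counts and DESeq2-normalized values, a signal in reads divided by size factors that only an added alternative here used. The strand setting is not given in the sources used here. The 111 rows that name no gene (0.0778% of reads) were left out. Counts were tested with edgeR 4.0.16 (R 4.3.3), TMM scaling, the quasi-likelihood F test and Benjamini-Hochberg adjustment over 36527 genes, with 1 coefficient for each genotype, tissue and week over the 33 libraries. A gene was called at a fold change over 1.5 and an adjusted p under 0.1. The SE was taken from the F statistic, as the size of the log2 difference over the root of F. DESeq2 1.42.0 and limma 3.58.1 were alternatives. On simulated data 88.5% of 200 genes with a log2 change of 2 were recovered in the comparison of WT mice of week 6, and 100% in the average, over 35216 genes. Unchanged genes called were 7 and 12. The changed genes excluded those with few reads, and the simulated spread followed the trend over expression alone. The rates therefore do not hold for members near 0 reads in glands. Counted reads per library ran from 28419983 to 130981596, and intervals and floors of 3 reads cover counting error only. The p-values measure the spread between mice. The members and lists were chosen with earlier results of these data known. Named genes were the 10 members, up to 4 called genes in each direction from each list that is no cell type list, by the size of the average log2 fold change, and the 8 genes most like the caseins and Wap, and genes named beyond these are said to be.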

Additional observations from a re-analysis of the deposited data

Results flagged for a closer look

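In 38 groups of 6 to 10 libraries of 1 gene, genotype and tissue, 6 values stood far from the others. Chance gives about 1 in 20 groups where values are spread normally. That rate does not apply to genes with mostly 0 reads, such as Glycam1. Csn3 was at 59.9 CPM in replicate 1 of the KO glands of week 10, where the other 5 KO glands had 25.8 to 33.7 CPM. Xdh was at 86.4 CPM in replicate 1 of the KO tumors of week 12, where the other 8 KO tumors had 151 to 216 CPM. Mfge8 was at 351 CPM in replicate 1 of the WT glands of week 8, where the other 7 WT glands had 230 to 277 CPM. The other 3 were values of Glycam1, which rest on few reads. It was at 0.611 CPM (44 reads) in replicate 3 of the KO tumors of week 12, at 0.0681 CPM (2 reads) in replicate 1 of the KO glands of week 10 and at 0.0547 CPM (3 reads) in replicate 2 of the WT glands of week 6, where the others of each group had at most 0.0241, 0.0196 and 0.0202 CPM.

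The WT tumor of week 12 was 1 mouse and entered none of the fitted comparisons. It lay above both WT glands of week 12 in Csn2 (0.0295 CPM, 3 reads), Csn3 (196 CPM), Wap (0.275 CPM), Lalba (7.99 CPM), Btn1a1 (51.6 CPM), Mfge8 (759 CPM), Xdh (168 CPM) and Glycam1 (0.0688 CPM, 7 reads). The share of all genes above both glands was not counted, so the number of members is not read as a result. Its Csn1s1 (1.30 CPM) lay between these glands (0.776 and 3.11 CPM), and its Csn1s2a (0.0885 CPM) lay below both (0.358 and 0.434 CPM).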

How the results depend on the processing

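The average over the 6 comparisons of tumors with glands called 9 members under all 8 alternatives and in all 30 fits that left out 1 library. In single comparisons counts of called members moved. The share of all genes called under each setting is not given beside these counts. In WT mice of week 6 the count of 5 became 8 with DESeq2 and 8 with the groups compared alone, and 1 to 5 when 1 library was left out. Leaving out 1 library gave counts of 5 to 8 (WT, week 8), 2 to 6 (WT, week 10), 1 to 2 (KO, week 8), 4 to 8 (KO, week 10) and 3 to 7 (KO, week 12). In KO mice the count of 2 at week 8 became 4 without the filter and 4 with DESeq2, and the count of 7 at week 12 became 0 with the groups compared alone. Without the filter on low counts the count of 0 became 2 for the difference of the tumor effect between genotypes, 2 for WT against KO tumors, 3 for WT tumors by age, 2 for KO tumors by age and 2 for WT glands by age, and the count of 1 for KO glands by age became 2. With DESeq2 these counts were 1, 1, 1, 0, 2 and 2. For WT glands by age filterByExpr gave 1, limma on the normalized values gave 1 and leaving out 1 library 0 to 1. For KO glands by age the groups alone gave 0 and leaving out 1 library 0 to 2, and for WT against KO glands it gave 1 to 3. Csn1s2a, which was not called there, changed sign. In KO mice of week 12 its 0.05 became -0.503 with the replicate block, -0.695 with limma on the normalized values and -1.01 to 0.57 when 1 library was left out, and in KO mice of week 8 its -0.11 became -0.78 to 0.96. The cause was not tested.

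Same-numbered tumors and glands came from different mice, and the main fit did not pair them. The correlations of their deviations ran from -0.56 to 0.56. Both values of KO mice of week 8 were high, at 0.518 and 0.561. There rRNA took 0.00572% and 0.0224% of the reads in replicate 1 of the tumors and glands, and 12.0% and 15.7% in replicate 2. What same-numbered libraries shared there was not tested. With the replicate block 4, 9 and 5 members were called in WT mice of weeks 6, 8 and 10, and 2, 5 and 6 in KO mice of weeks 8, 10 and 12. Limma on the normalized table was added after seeing the data, in place of a planned test on reads recovered from that table, which was not run because 2 of its columns did not give whole reads. Where a fit left 1 gland in a group, that gland was assumed to vary like the other groups. Glands numbered 2 in each group, which limits every single comparison, and Wap, Lalba, Csn2 and Csn1s2a held few or no reads in glands.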
